A study of Mus musculus with 4 samples.

Results

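The genes described here are the heat shock proteins and chaperones of the mouse mammary gland. They were chosen by name alone from the deposited table: the Hsp70 and Hsp110 genes (*Hspa* and *Hsph1*), the Hsp90 genes (*Hsp90*), the small heat shock proteins (*Hspb*), the mitochondrial chaperonin (*Hspd1* and *Hspe1*), the J proteins (*Dnaja*, *Dnajb* and *Dnajc*), the cytosolic TRiC chaperonin (*Cct2* to *Cct8*) and the Bag co-chaperones (*Bag1* to *Bag6*). The rule found 84 of the 22479 gene names in the table. The rule itself uses no measured difference, but the family and the lists below were picked with earlier results of these data known. Where a name had more than 1 locus, the locus with the higher mean value was kept. The RNA came from mammary glands of 4 mice aged 2 months on the mixed strain 129SV::FVB/N::C57BL/6, of which 2 were miR-21+/+ and 2 were miR-21-/-. The miR-21 gene is deleted in the miR-21-/- mice, the labels name no promoter or Cre that would limit this to a cell type, and they name no treatment. Poly(A) RNA of the whole gland was sequenced, so fat, epithelium, muscle, vessels and immune cells are measured together, and fewer cells of a type cannot be told apart from less RNA per cell.

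The authors deposited a single FPKM value for each genotype (fragments per kilobase of exon after scaling for library size), so both mice of a genotype enter each value. How far mice of a genotype differ cannot be seen, no difference below has a replicate check, and no test was possible. All differences are given as the log2 ratio of the miR-21-/- to the miR-21+/+ value, and as counts beside the same counts over all genes. A gene was counted as higher or lower if it differed by at least 1.5-fold and one of its values at least was over 5 FPKM, which held for 10158 gene names and 69 of the 84 chaperone genes. FPKM carries no read counts, so the depth behind each value is unknown.

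The targeted gene was examined first. The table merges *Mir21* with *Vmp1*, the gene that holds the microRNA, as 1 locus on chromosome 11 (86397276 to 86497345, mm9), at 42.5 FPKM in miR-21+/+ and 68.2 FPKM in miR-21-/- glands. This is the long host transcript and not the mature microRNA, so it does not check the genotype labels. Markers of epithelium and fat were looked at next. They are not particular to the mammary gland, so they do not settle the tissue label. The luminal keratins *Krt8* (119 and 197 FPKM in miR-21+/+ and miR-21-/-) and *Krt18* (148 and 216 FPKM) and the adipocyte gene *Fabp4* (7677 and 5523 FPKM) were present in both genotypes. The summed FPKM of all loci was 759295 in miR-21+/+ and 1175603 in miR-21-/-, while over named loci it was 380567 and 355385. Scaling to equal sums over all loci therefore shifts every log2 ratio by -0.63. The median log2 ratio of all gene names over the minimum was -0.03, and chaperone genes are described below as lying above or below this median, which no scaling changes.

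Chaperones bind unfolded stretches of other proteins and help them to fold, to refold or to be degraded. Hsp70 does so in cycles of ATP hydrolysis, in which J proteins deliver the client and stimulate the ATPase, while Hsp110 and Bag proteins release the nucleotide. Hsp90 acts on late folding steps of kinases and steroid receptors, the ring-shaped chaperonins enclose their clients, and small heat shock proteins hold unfolded proteins without ATP. Part of the family is induced by heat and other protein stress through the transcription factor HSF1, which binds heat shock elements in promoters. Separate members serve the endoplasmic reticulum (ER) and the mitochondria. In the mammary gland these proteins are made by epithelial, fat, muscle and immune cells.

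The chaperone genes covered a wide range of levels. *Hspa8*, the constitutive Hsp70 of the cytosol, was the most abundant in both genotypes. In a locus shared with *LOC624853*, it was at 793 FPKM in miR-21+/+ and 1013 FPKM in miR-21-/-. It was followed by *Hsp90ab1*, the constitutive Hsp90, at 480 and 576 FPKM, and then by the ER chaperones *Hsp90b1* (205 and 202 FPKM) and *Hspa5* (192 and 225 FPKM), whose order differed between the genotypes. These 4 genes made up 43.3% of the summed FPKM of the chaperone genes in miR-21+/+ and 45.9% in miR-21-/-. All 84 together took 1.01% of the FPKM of named loci in miR-21+/+ and 1.23% in miR-21-/-.

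**Figure D1:**
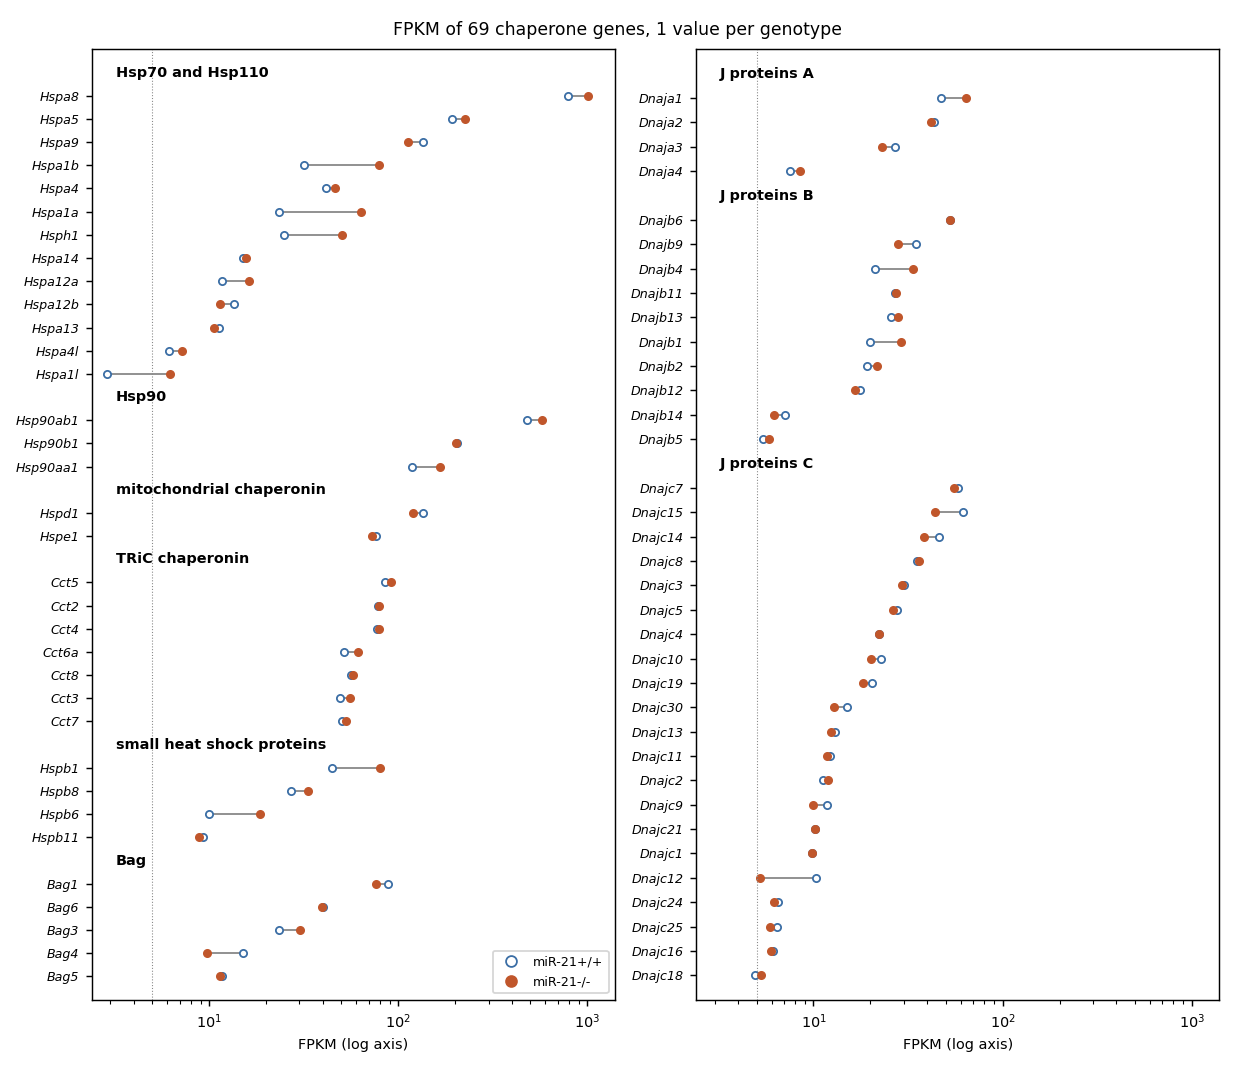
FPKM (log axis) of the chaperone genes in miR-21+/+ (open blue) and miR-21-/- (filled orange), each point being the authors' single value for 2 mice, with a dotted line at 5 FPKM. *Hspa8* stands highest at 793 and 1013 FPKM, and the widest gaps between genotypes among genes over the minimum are those of *Hspa1a* and *Hspa1b*.

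Of the 69 chaperone genes over the minimum, 7 were at least 1.5-fold higher in miR-21-/- (10.1%), beside 3.77% of all gene names over the minimum. *Hspa1l* passed the minimum only through its miR-21-/- value, and with more than 5 FPKM required in both genotypes 6 of 67 were higher, beside 2.59%. Without a minimum, among genes above 0 in both genotypes, 8 of 83 were higher, beside 9.29% of all gene names. The 7 were *Hspa1a*, *Hspa1b*, *Hspa1l*, *Hsph1*, *Hspb6*, *Hspb1* and *Dnajb4*. At least 1.5-fold lower were 2 (2.90%), *Dnajc12* and *Bag4*, beside 4.3% of all gene names. With equal sums over all loci the split was 2 higher (*Hspa1a* and *Hspa1b*) and 39 lower, beside 0.689% and 66.4% of all gene names. At 2-fold the counts were 4 and 0, beside 1.21% and 1.41% of all gene names. In all, 40 chaperone genes lay above the median of all gene names and 29 below it, and their median log2 ratio was 0.01. The difference thus lay in a part of the family, while most members stood near the median of the genome.

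*Hspa1a* and *Hspa1b* encode the stress-inducible Hsp70 of the cytosol and showed the highest ratios. *Hspa1a* (chromosome 17, 35106304 to 35109101, mm9) was at 23.4 FPKM in miR-21+/+ and 63.4 FPKM in miR-21-/-, a 2.71-fold difference (log2 ratio 1.44), and only 44 of the 10158 gene names had a higher ratio. *Hspa1b* (chromosome 17, 35093374 to 35096183) was at 31.9 and 78.7 FPKM, or 2.47-fold (1.30). The coding sequences of these neighbours are 99.6% identical, and 82.3% of the 50-base stretches of *Hspa1a* also occur in *Hspa1b*, so how their reads were split is uncertain and they are best read as a single observation. Without *Hspa1b*, 6 of 68 genes were at least 1.5-fold higher, beside 3.76% of all gene names over the minimum.

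*Hspa1l* lies next to *Hspa1a* (chromosome 17, 35109648 to 35116173) and encodes a related Hsp70 known mainly from the testis. It was at 2.90 FPKM in miR-21+/+ and 6.22 FPKM in miR-21-/- (log2 ratio 1.10), so its miR-21+/+ value was under the minimum. Its coding sequence is 83.5% identical to that of *Hspa1a*, with 12.4% of the 50-base stretches shared. *Hsph1* (chromosome 5, 150419216 to 150438890) encodes Hsp110, the nucleotide exchange partner of Hsp70. It was at 25.02 FPKM in miR-21+/+ and 50.4 FPKM in miR-21-/-, a 2.01-fold difference (1.01).

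The remaining Hsp70 genes differed less. *Hspa8* had a log2 ratio of 0.35 and *Hspa5* of 0.23. *Hspa12a*, a distant relative, was at 11.8 and 16.2 FPKM (0.47). Lowest in this family was *Hspa9*, the mitochondrial Hsp70, at 135 FPKM in miR-21+/+ and 113 FPKM in miR-21-/- (-0.26). Over the 13 Hsp70 and Hsp110 genes above the minimum the median log2 ratio was 0.23, with 10 above the median of all genes and 3 below. Among the 3 Hsp90 genes, *Hsp90aa1*, the inducible cytosolic form, was at 118 and 166 FPKM (0.49). *Hsp90ab1* had a log2 ratio of 0.26, in a locus that overlaps *Slc35b2*, and the ER form *Hsp90b1* of -0.02.

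The small heat shock proteins had the highest family median, 0.57 over 4 genes. *Hspb1* (Hsp25 in the mouse, chromosome 5, 136363610 to 136370344) was at 44.4 FPKM in miR-21+/+ and 80.0 FPKM in miR-21-/-, a 1.80-fold difference (log2 ratio 0.85). *Hspb6* (Hsp20, abundant in muscle, chromosome 7, 31337576 to 31344786) was at 9.94 and 18.7 FPKM, or 1.88-fold (0.91), in a locus that overlaps *Lin37*. *Hspb8*, which works with Bag3 in the autophagy of damaged proteins, was at 27.2 and 33.2 FPKM (0.29). *Hspb11*, placed in this family by its symbol alone, was at 9.29 and 8.81 FPKM (-0.08), the lowest ratio of the 4. Another 4 genes of this family stayed under the minimum, among them *Hspb7*, a gene of heart and muscle, at 0.500 and 1.10 FPKM. With these included the family median was 0.35.

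**Figure D2:**
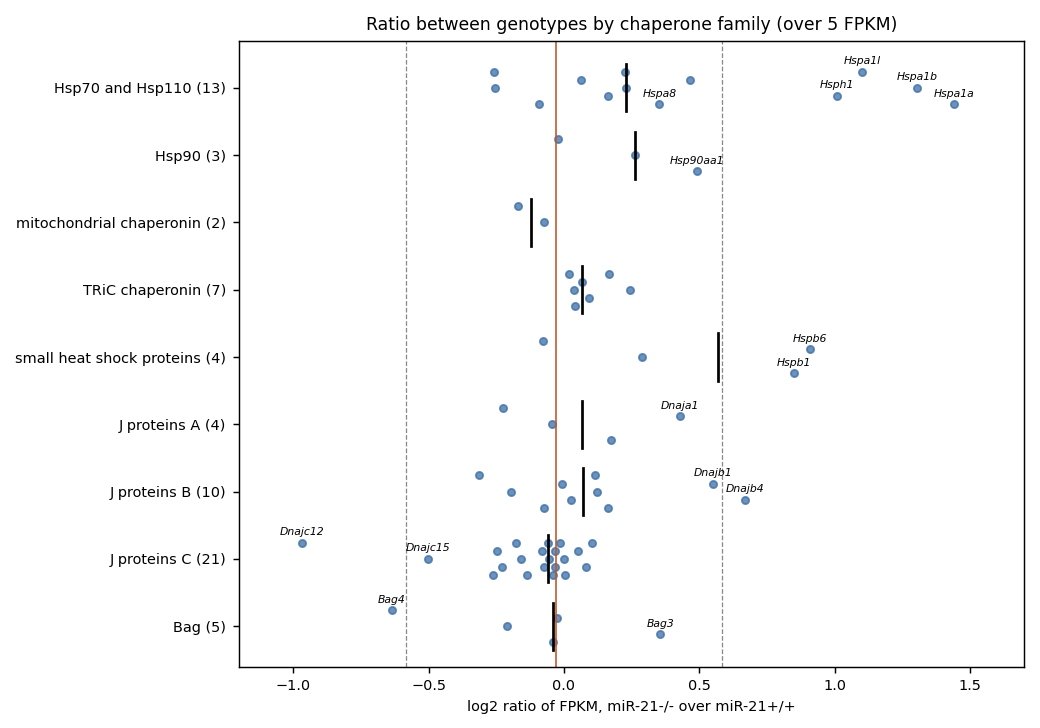
Log2 ratio of FPKM, miR-21-/- over miR-21+/+, for the 69 chaperone genes over 5 FPKM, by family (number of genes in brackets). Each point is a gene, black bars are family medians, the orange line is the median of all gene names and dashed lines mark 1.5-fold. The small heat shock proteins have the highest median, 0.57, and the mitochondrial chaperonin the lowest, -0.12. Scaling to equal sums over all loci would move every point and the orange line by -0.63.

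The J proteins were led by the partners of inducible Hsp70. *Dnajb4* (chromosome 3, 151845875 to 151873263), a cytosolic J protein of the Hsp40 type, was at 21.1 FPKM in miR-21+/+ and 33.6 FPKM in miR-21-/-, a 1.59-fold difference (log2 ratio 0.67). *Dnajb1*, the main inducible Hsp40, was at 19.9 and 29.2 FPKM (0.55), just short of the limit. *Dnaja1*, which shares its locus with *Mir207*, was at 47.5 and 64.0 FPKM (0.43). Other abundant members of these classes, *Dnajb6* (53.0 and 52.7 FPKM), *Dnaja2* (43.3 and 42.0 FPKM) and *Dnaja3* (26.9 and 23.0 FPKM), had log2 ratios of -0.01, -0.04 and -0.22. In class A 2 of 4 genes lay above the median of all genes, and in class B 7 of 10.

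Class C, the most diverse J proteins, lay lower. Of its 21 genes over the minimum, 15 were below the median of all genes, with a family median of -0.06. *Dnajc12* (chromosome 10, 62845191 to 62872538), a co-chaperone of aromatic amino acid hydroxylases, was at 10.3 FPKM in miR-21+/+ and 5.24 FPKM in miR-21-/-, 1.96-fold lower (log2 ratio -0.97). Only 148 gene names had a lower ratio. The most abundant genes of the class were *Dnajc7* (58.1 and 55.1 FPKM), an adaptor between Hsp70 and Hsp90, *Dnajc15* (61.8 and 43.7 FPKM) and the merged locus of *Dnajc14* and *Mmp19* (46.3 and 38.6 FPKM), which the table marks as a failed test.

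Among the Bag proteins, *Bag4* (chromosome 8, 26873374 to 26914447), known as the silencer of death domains, was at 15.2 FPKM in miR-21+/+ and 9.76 FPKM in miR-21-/- (log2 ratio -0.64). Its locus overlaps *Lsm1*. With equal sums over named loci it no longer passed 1.5-fold. *Bag3*, the heat-inducible member, was at 23.5 and 30.1 FPKM (0.36). *Bag1*, the most abundant, was at 87.8 and 75.8 FPKM (-0.21), and *Bag6* at 40.2 and 39.5 FPKM (-0.02), also marked as a failed test. The family was therefore split, with 2 genes above the median of all genes and 3 below.

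The genes were also grouped by role. A list of 13 heat-inducible members, drawn from what is known of the HSF1 response but with earlier results of these data in view, was over the minimum in full, and its counts are a description. In this list 5 genes were at least 1.5-fold higher (38.5%, beside 3.77% of all gene names) and 10 were higher by at least 0.32 on the log2 scale, a smaller limit that 8.3% of all gene names passed. None was lower by either limit. The median log2 ratio was 0.49, and 0.46 without *Hspa1b*. Of the other 3, *Hsp90ab1* was higher by less (0.26), and lower in miR-21-/- were *Hspd1* (135 and 120 FPKM, -0.17) and *Hspe1* (76.3 and 72.5 FPKM, -0.07), the 2 subunits of the mitochondrial chaperonin. The summed FPKM of the 13 genes was 1839 in miR-21+/+ glands and 2376 in miR-21-/- glands, whereas the other 71 chaperone genes summed to 2018 and 2012. The list includes the abundant *Hspa8* and *Hsp90ab1*, which are also expressed without stress, and their differences of 219 and 96.1 FPKM made up the larger part of that of the list.

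Several marker lists stood apart in the same direction. Of 10 immediate early and handling stress genes over the minimum, 8 were higher in miR-21-/-, beside 43.3% of all gene names, and 4 by at least 1.5-fold, beside 3.77%. Their sum was 141 FPKM in miR-21+/+ and 175 FPKM in miR-21-/-. The 4, chosen here after their values were seen, were *Atf3* (2.58 and 5.46 FPKM, over the minimum in miR-21-/- only), *Egr1* (7.89 and 16.0 FPKM), *Fos* (6.95 and 13.0 FPKM) and *Jun* (21.2 and 31.8 FPKM). The most abundant gene of the list, *Hmox1*, was at 33.3 and 37.7 FPKM. Lower in miR-21-/- were *Gadd45b* (7.99 and 5.64 FPKM) and *Dusp1* (23.9 and 20.5 FPKM), likewise named after their values were seen. All 13 skeletal muscle markers were higher, with a sum of 1580 and 2609 FPKM, led by *Acta1* (328 and 526 FPKM). All 9 smooth muscle and myoepithelial markers were higher too, at a sum of 496 and 793 FPKM (*Acta2*, 222 and 341 FPKM), as were all 8 luminal epithelial markers at 648 and 883 FPKM (*Krt19*, 223 and 247 FPKM). No marker of these lists was at 0 in either genotype. Their part in the higher values of *Hspa1a*, *Hspa1b*, *Hsph1*, *Hspb1*, *Hspb6* and *Dnajb4* was not tested.

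Other marker lists were lower in miR-21-/- or close to the median of all genes. The sum of the white adipocyte markers was 12250 FPKM in miR-21+/+ and 8869 FPKM in miR-21-/-, with 6 of 7 lower. *Fabp4* (7677 and 5523 FPKM) made up the larger part of this sum. The exception, *Lep*, named after its value was seen, was higher at 27.7 and 67.9 FPKM (log2 ratio 1.29). The 4 brown adipocyte markers over the minimum were all lower, with the list at 247 and 120 FPKM in sum (*Cox8b*, 123 and 77.6 FPKM). The B cell list summed to 106 and 53.7 FPKM (*Cd79a*, 70.3 and 48.3 FPKM) and the T cell list to 43.7 and 10.4 FPKM (*Lck*, 8.41 and 2.13 FPKM). Macrophage and endothelial markers had median log2 ratios of -0.02 and 0.03 (*Cd68*, 255 and 252 FPKM, and *Cdh5*, 43.8 and 47.3 FPKM).

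**Figure D3:**
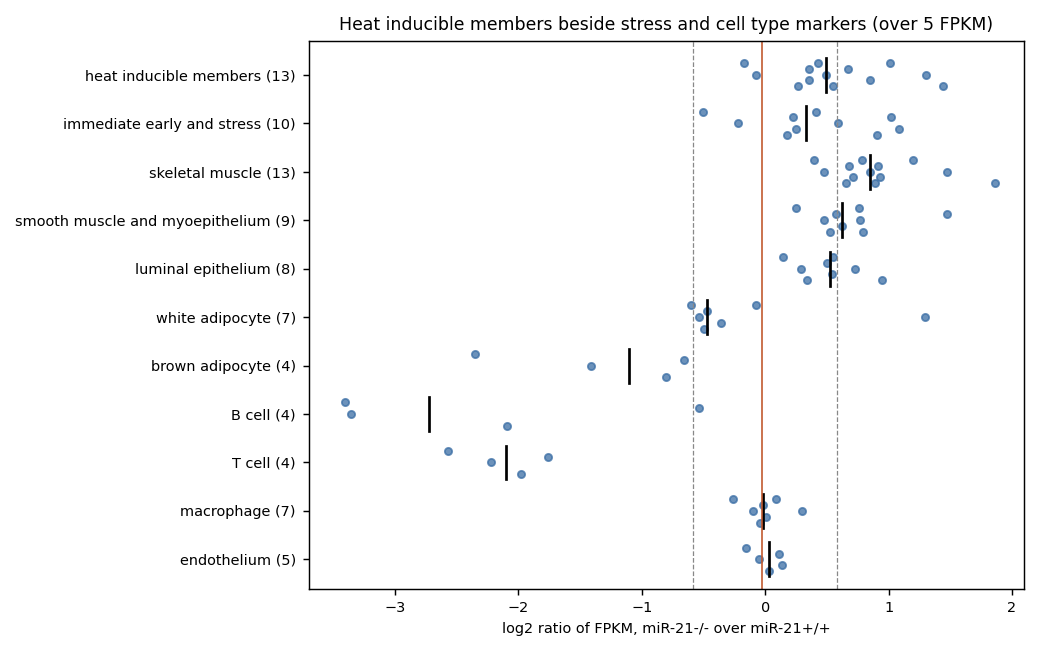
Log2 ratio of FPKM, miR-21-/- over miR-21+/+, of cell type and handling stress markers over 5 FPKM, with the same lines as in the plot by family. Skeletal muscle, smooth muscle and myoepithelial, and luminal markers all lie to the right of the orange line, and brown adipocyte, B cell and T cell markers all lie to its left. Equal sums over all loci would shift the whole plot by -0.63.

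Promoter sequences were examined for heat shock elements, the inverted repeats of the letters GAA that HSF1 binds. RefSeq promoters (GRCm38.p6, 250 bases before to 50 after the start) were matched for 69 of the 84 genes, and for 56 of the 69 over the minimum. The match searched was GAANNTTC or TTCNNGAA, both of which read the same on either strand. It was present in 17 of the 56 (30.4%), beside 1117 of 7913 gene names over the minimum (14.1%) and 15.1% of all 32851 promoters in the RefSeq table. Among the 7 genes at least 1.5-fold higher, 6 carried it. The following stretches show the match in capitals for these genes and for *Dnaja1*, 5′ to 3′ on the strand of the gene.
Hspa1a, chr17:34972242-34972271, minus strand: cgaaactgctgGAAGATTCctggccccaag
Hspa1b, chr17:34959324-34959353, minus strand: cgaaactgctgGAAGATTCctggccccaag
Hsph1, chr5:149636351-149636380, minus strand: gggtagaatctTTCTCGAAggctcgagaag
Hspb1, chr5:135887791-135887820, plus strand: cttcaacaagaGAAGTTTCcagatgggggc
Hspb6, chr7:30553170-30553199, plus strand: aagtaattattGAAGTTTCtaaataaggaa
Dnajb4, chr3:152193846-152193875, minus strand: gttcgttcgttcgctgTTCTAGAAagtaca
Dnaja1, chr4:40722333-40722362, plus strand: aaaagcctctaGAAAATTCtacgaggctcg
The stretches of *Hspa1a* and *Hspa1b* are identical and begin their match 104 bases before the start, so these genes are no independent cases of the motif either. *Hspb1* holds a further match 97 bases before its start.

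Chaperone genes with and without the match differed in their values. The 17 genes with it had a median log2 ratio of 0.29, and 6 of them were at least 1.5-fold higher (35.3%). The 39 genes without it had a median of -0.02, and 1 of them, *Hspa1l*, was at least 1.5-fold higher (2.56%). Over all gene names over the minimum with a promoter no such difference was seen. At least 1.5-fold higher were 36 of 1117 with the match (3.22%) and 218 of 6796 without it (3.21%). *Dnajb1* had no match in this window. These letters are a description of the promoters and not a measure of HSF1 binding.

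**Figure D4:**
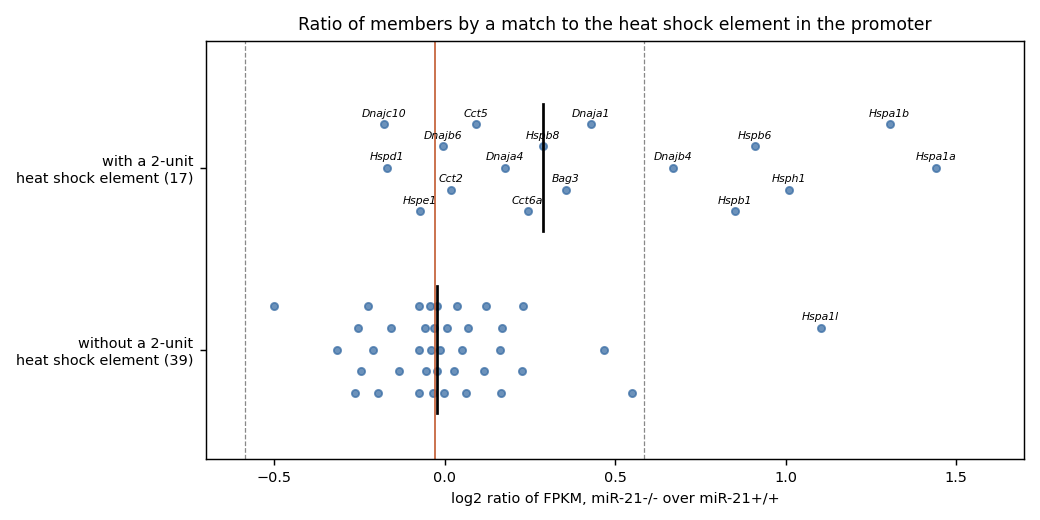
Log2 ratio of FPKM, miR-21-/- over miR-21+/+, of the 56 chaperone genes over 5 FPKM with a RefSeq promoter, split by a match to the heat shock element letters. Black bars are medians (0.29 with and -0.02 without), the orange line is the median of all gene names and dashed lines mark 1.5-fold. Equal sums over all loci would shift all points by -0.63.

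Longer matches were rare, and only 1 of the genes that held them was at least 1.5-fold higher. Runs of at least 3 such units in turn of orientation, each 2 bases from the next, were searched as well. They were found in 4 of the 56 promoters (7.14%), beside 0.670% of gene names over the minimum. The 4 were *Hsph1* (log2 ratio 1.01), *Dnajb6* (-0.01), *Hspe1* (-0.07) and *Hspd1* (-0.17). The run of *Hsph1* is not shown, and the stretch of this gene given above marks 2 units. *Hspd1* and *Hspe1* are divergent neighbours and share the same element of 4 units. It is shown from both strands, followed by the 3 units of *Dnajb6*.
Hspe1, chr1:55088053-55088082, plus strand: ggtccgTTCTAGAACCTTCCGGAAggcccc
Hspd1, chr1:55088053-55088082, minus strand: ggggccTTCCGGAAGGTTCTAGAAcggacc
Dnajb6, chr5:29735843-29735872, plus strand: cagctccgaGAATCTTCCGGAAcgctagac

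The mitochondrial members lay together below the median of all genes. All 8 did so, with a median log2 ratio of -0.20, and none passed 1.5-fold. *Dnajc15*, a J protein of the inner membrane that restrains respiration, was at 61.8 FPKM in miR-21+/+ and 43.7 FPKM in miR-21-/- (-0.50). It was the only 1 of them to pass the smaller limit of 0.32 on the log2 scale, which 11.3% of all gene names passed on the lower side. *Hspa9*, the motor of protein import, had a log2 ratio of -0.26, *Dnajc30* (15.1 and 12.8 FPKM) of -0.23, and *Dnaja3* of -0.22. *Dnajc19*, part of the import motor, was at 20.3 and 18.2 FPKM (-0.16), and *Dnajc11* at 12.2 and 11.8 FPKM (-0.04). Nuclear-encoded partners outside the family were placed alike: of 9 mitochondrial cofactors and proteases 8 lay below the median of all genes, with a median of -0.16. The most abundant was *Trap1*, the mitochondrial Hsp90, at 63.4 and 54.6 FPKM (-0.22). The adipocyte marker sums given above were lower in miR-21-/- as well, and their part in these values was not tested.

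The ER chaperones stayed close to the median of all genes. Of 10 members 4 were above it and 6 below, their median log2 ratio was -0.05, and none passed the smaller limit. *Hspa5* (BiP, the ER Hsp70) had the highest ratio, 0.23, in a locus that overlaps *Rabepk*, and *Dnajb9* (ERdj4, a BiP co-chaperone) the lowest, at 34.9 and 28.1 FPKM (-0.32). Between them lay *Dnajb11* (27.0 and 27.5 FPKM), *Dnajc1* (9.86 and 9.84 FPKM), *Dnajc3* (30.1 and 29.4 FPKM) and *Dnajb12* (17.5 and 16.6 FPKM), with log2 ratios from -0.07 to 0.03. *Hspa13* was at 11.3 and 10.6 FPKM (-0.09), *Dnajc10*, a disulfide reductase, at 22.8 and 20.2 FPKM (-0.18), and *Dnajb14* at 7.10 and 6.21 FPKM (-0.19). The ER stress element, CCAAT and CCACG with 9 bases between them, was searched on both strands and occurred in 3 of the 56 promoters, beside 13 of 7913 (0.164%). Here 1 match per gene is shown in capitals, and *Hsp90b1* holds a further match in reverse orientation 107 bases before its start.
Hspa5, chr2:34772019-34772048, plus strand: acttcaCCAATCGGAGGCCTCCACGacggg
Hsp90b1, chr10:86705633-86705662, minus strand: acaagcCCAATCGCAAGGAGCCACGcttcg
Dnajc3, chr14:118937821-118937850, plus strand: ccacaaCCAATCAGCGCCAACCACGacccg
Their log2 ratios were 0.23, -0.02 and -0.03. The shorter letters CCAAT alone were in 41.1% of the chaperone promoters, beside 42.3% of gene names over the minimum.

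TRiC folds actin and tubulin as a ring of different subunits, and its genes differed little between genotypes. All 7 *Cct* genes over the minimum were above the median of all genes, with log2 ratios from 0.02 to 0.24. *Cct5* was at 85.5 and 91.1 FPKM, *Cct2* at 78.1 and 79.0 FPKM and *Cct4* at 77.3 and 79.4 FPKM. The remaining *Cct* genes over the minimum lay between 49.4 and 61.4 FPKM, and *Cct6a* had the highest ratio. *Cct6b*, a testis form, was at 0.427 and 0.340 FPKM. *Tcp1*, a further TRiC subunit outside the naming rule, was at 70.0 and 65.5 FPKM (-0.09), below the median of all genes. The list of *Tcp1* and prefoldin, which works with TRiC, had a median of 0.01 over 6 genes. Of these *Pfdn5* was the most abundant (122 and 128 FPKM).

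Genes of the folding pathways outside the family were examined from lists of their known components. Of 65 listed genes, 59 were over the minimum and 0 of these passed 1.5-fold in either direction, beside 3.77% higher and 4.3% lower of all gene names. At the smaller limit of 0.32 on the log2 scale 7 were higher, beside 8.3% of all gene names, and 1 was lower, beside 11.3%. *Hsf1* itself was at 15.3 FPKM in miR-21+/+ and 16.0 FPKM in miR-21-/- (log2 ratio 0.07), and *Hsbp1*, its binding protein, at 75.9 and 74.5 FPKM. Of the 18 Hsp70 and Hsp90 co-chaperones, 12 lay above the median of all genes, and the most abundant, *St13*, was at 109 and 106 FPKM (-0.04). Those past the smaller limit, chosen after their values were seen, were *Stip1* (40.5 and 53.1 FPKM), which bridges Hsp70 and Hsp90, *Unc45a* (10.8 and 14.0 FPKM), *Fkbp4* (48.8 and 62.8 FPKM), *Chordc1* (30.8 and 39.6 FPKM) and, in the opposite direction, the glucocorticoid-responsive *Fkbp5* (14.1 and 9.98 FPKM, -0.50).

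The ER folding enzymes and lectins had a median log2 ratio of -0.06 over 13 genes, and the most abundant, the collagen chaperone *Serpinh1*, was at 289 and 278 FPKM (-0.06). *Sdf2l1*, an ER stress gene and again named after its value was seen, was at 8.96 and 12.6 FPKM (0.49). Of the 8 unfolded protein response regulators 7 lay above the median of all genes. The most abundant, *Xbp1*, which drives secretory differentiation, was at 84.0 and 117 FPKM (0.47). The secreted chaperone *Clu* was at 88.3 and 106 FPKM (0.26). *Cryab*, a small heat shock protein outside the naming rule and abundant in muscle, was at 43.0 and 63.4 FPKM (0.56). Its locus has the same coordinates as that of *Hspb2* (2.54 and 3.36 FPKM), so their reads may not be separable.

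**Figure D5:**
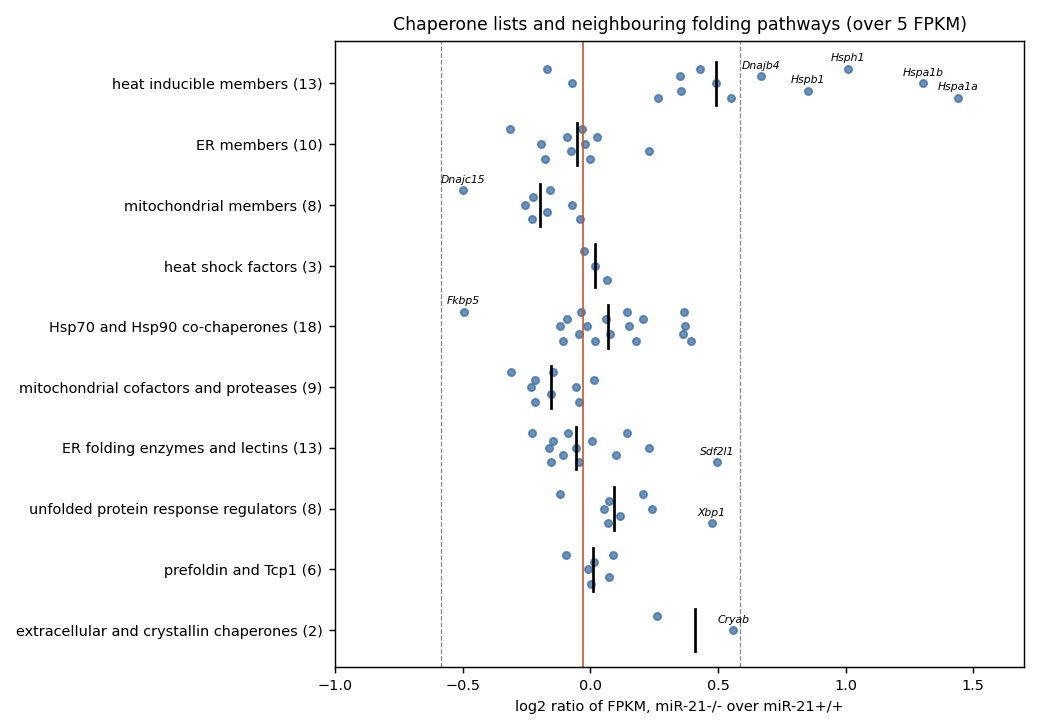
Log2 ratio of FPKM, miR-21-/- over miR-21+/+, of chaperone genes by role and of neighbouring folding pathways, over 5 FPKM, with the same lines as in the plot by family. The heat-inducible members have a median of 0.49, the mitochondrial members of -0.20, and no gene of the neighbouring pathways passes 1.5-fold. Equal sums over all loci would shift the whole plot by -0.63.

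The other 15 chaperone genes did not exceed 5 FPKM in either genotype. The highest of them was *Bag2*, at 4.16 and 4.85 FPKM, and *Dnajb8* was listed at 0 in both. *Dnajb13*, a J protein of sperm and cilia, passed the minimum at 25.8 and 28.1 FPKM in a locus that overlaps *Ucp2*. A second entry of *Dnajb13* at the same coordinates was at 0.365 and 0.579 FPKM, so the higher value is uncertain. *Dnajc15* also had a second entry, at 0.0365 and 0 FPKM. In all, 4 of the 84 loci were merged with another gene and 22 overlapped another named locus. Near the limit of 1.5-fold, *Dnajb4* (1.59-fold) passed and *Dnajb1* (1.46-fold) fell short of it on the higher side, and *Bag4* (1.55-fold) passed and *Dnajc15* (1.42-fold) fell short of it on the lower side.

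Since the deleted gene is a microRNA, the 3′ UTRs were searched for its seed match. MicroRNAs pair through bases 2 to 8, the seed, with sites in the 3′ UTR of their targets. The mature sequence is given with the seed in capitals.
mmu-miR-21a-5p: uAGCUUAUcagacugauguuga
The complementary letters ATAAGCT occurred in the longest annotated 3′ UTR of 7 of 67 chaperone genes over the minimum (10.4%), beside 6.83% of 9738 gene names. All 7 were J proteins: *Dnaja1*, *Dnaja2*, *Dnaja4*, *Dnajb4*, *Dnajb5*, *Dnajb14* and *Dnajc16*. Their log2 ratios ran from -0.19 to 0.67 with a median of 0.12, and only *Dnajb4* was at least 1.5-fold higher. Chaperone genes over the minimum without a match had a median of -0.004. Over all gene names over the minimum the medians were -0.01 with and -0.03 without a match. In *Dnajb5* and *Dnajb14* the site lies outside the measured locus. The sites of the 2 genes with the highest ratios are shown with the match in capitals (mm9).
Dnajb4, chr3:151847357-151847379, minus strand: tatatcttaaacttaATAAGCTc
Dnaja1, chr4:40680027-40680049, plus strand: aggactgtaatcataATAAGCTc
Dnaja1, chr4:40680497-40680519, plus strand: ctaaagaagtttatcATAAGCTa
*Dnajc16* had 3 such sites and a log2 ratio of -0.03. *Hspa1a*, *Hspa1b*, *Hsph1*, *Hspb1* and *Hspb6* had no match to these letters. A match is not evidence of targeting, and the values say nothing of protein levels.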

How the data were processed

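Poly(A) RNA of mammary glands from 2 miR-21+/+ and 2 miR-21-/- mice was sequenced single-end on an Illumina HiSeq. The submitters' processing notes name CASAVA, TopHat and mm9, and the authors used Cufflinks and deposited 1 Cuffdiff table with an FPKM value per genotype. Program versions, the gene annotation and the normalization options are not given in the sources used here. The table's fold changes, test statistics, p-values and q-values are the authors' own comparison and were not used. Its status entry served as a flag only: 3 chaperone genes were marked as failed and 2 as not tested.

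From the deposited FPKM values log2 ratios were computed without a pseudocount, taking for each of 22479 gene names the locus with the highest mean. No test was run. Limma, planned in case each mouse had its own values, could not be run on a single value per genotype. Depth is unknown: 3025 loci under 0.3 FPKM showed no steps of whole reads (at most 1.55% fell in a single bin). Table starts count from 0, since 8712 matched an annotated start after adding 1 and 512 as printed. Coordinates count from 1.

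Named genes are the members at 1.5-fold or more, the 3 most abundant of each family, all members of the role lists, and the most abundant gene of each other list. Genes outside this rule are said to be so or illustrate a range, an overlap or a doubtful entry. The members and lists were chosen with earlier results of these data known. Promoters and the microRNA came from RefSeq (GRCm38.p6), with 15 members unmatched: *Bag4*, *Cct4*, *Dnajc2*, *Dnajc5*, *Dnajc11*, *Dnajc12*, *Dnajc18*, *Dnajc22*, *Dnajc30*, *Hsp90aa1*, *Hsp90ab1*, *Hspa8*, *Hspa9*, *Hspa13* and *Hspb2*. The 3′ UTRs came from the GENCODE vM1 annotation of mm9. Alternatives were pseudocounts of 1 and 0.1, other minimums and fold limits, 3 scalings and other choices of locus. Leaving out failed loci and leaving out *Hspa1b* were chosen after seeing the data. The calculations were tested on simulated data and used Python 3.11.15, numpy 2.4.6, pandas 2.3.3, Biopython 1.88 and matplotlib 3.10.9.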

Additional observations from a re-analysis of the deposited data

How the results depend on the processing

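No paired analysis was possible because only 1 value per genotype is given, and for the same reason leaving out each mouse was not run. None of the 9 genes at 1.5-fold or more changed sign under these alternatives. A median was taken as unmoved when it changed by less than 0.1 on the log2 scale, and a count when it stayed within 1.5 times. Equal sums over all loci moved every value: 2 chaperone genes were higher and 39 lower, and the median log2 ratio was -0.63 for the chaperone genes, -0.66 for all gene names, -0.40 for Hsp70 and Hsp110, -0.37 for Hsp90, -0.75 for the mitochondrial chaperonin, -0.56 for TRiC, -0.062 for the small heat shock proteins, -0.57, -0.56 and -0.69 for J proteins A, B and C, -0.67 for Bag, -0.69 for the ER members, -0.14 for the heat-inducible members and -0.83 for the mitochondrial members. This follows from the common shift given in the report, and distances to the median of all gene names stay the same. Equal sums over named loci left 1 gene lower and 9 higher, beside 3.12% and 5.14% of all gene names. At the smaller limit of 0.32 on the log2 scale 13 were higher and 3 lower, beside 8.3% and 11.3%, and at 2-fold 4 and 0, beside 1.21% and 1.41%. The median of the small heat shock proteins was 0.35 without a minimum and 0.41 with a mean over 1 FPKM, since low genes then enter. That of J proteins A was -0.045 over loci with a single name, which leaves out *Dnaja1*. With a pseudocount of 1, *Dnajc12* was at -0.85 and *Hspa1l* at 0.89. Apart from the median of the small heat shock proteins, counts and medians stayed within these limits under pseudocounts, other minimums and the median scaling. They also did so with summed loci, without failed loci and without *Hspa1b*. Without a minimum 8 of 83 chaperone genes were higher, beside 9.29% of all gene names. With over 5 FPKM in both genotypes 6 of 67 were higher, beside 2.59%. Unknown depth and the lack of a value per mouse limit every ratio, most of all those of genes near 5 FPKM.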
